A study of Mus musculus with 4 samples.

Results

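Isolated CHD8 sites are autosomal places where CHD8 was mapped with no other peak in a wide surrounding stretch of chromosome. Sites were chosen by peak position: a replicate 2 peak had to share at least 1 bp with a replicate 1 peak, and the next replicate 2 peak on each side had to lie more than 200 kb away, measured from end to start. The first and last peak of each chromosome were left out. There were 403 such sites among 31002 replicate 2 peaks and among 18543 autosomal peaks with a replicate 1 partner, which is 2.17% of the latter. They were thus selected on the positions of the replicate 2 peaks and the presence of a partner, and the gaps and the partner are descriptions of the choice. Fold enrichment, width, reads at the summit, control coverage, summit position and the gaps in replicate 1 were not part of it.

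The samples were mouse embryonic stem cells in 2i medium, which keeps such cells naive by blocking MEK and GSK3. All carried a homozygous 3xFLAG tag at the C terminus of the endogenous CHD8, in 2 samples used for anti-FLAG (M2) chromatin immunoprecipitation and 2 used as input without antibody. Each ChIP sample had its own peak list, and the input reads are seen here only as the control level of the peak calls. Nothing in the labels gives separate cultures for the replicates, and no ChIP of untagged cells was analysed here, so tag-independent signal of the antibody cannot be told apart.

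CHD8 belongs to the CHD family of chromatin remodellers, which use ATP to move nucleosomes, and is known for binding at active promoters. Mammalian genes are unevenly spread, and between gene-rich stretches lie gene-poor regions in which regulatory elements and promoters can be far apart. Mutations of CHD8 are known in autism. Positions below are in mm9 and 1-based. No annotation or sequence of that build was used here, so the sites are given by position and no gene, exon or motif is assigned to them.

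The surroundings of these sites were wide. The nearer neighbour lay a median of 333 kb away (quartiles 247 and 499 kb), against 4.16 kb for all autosomal peaks with a partner. The farther neighbour lay a median of 734 kb away, and both gaps together had a median of 1136 kb. At 101 sites (25.1%) both neighbours were more than 500 kb away, and at 14 sites more than 1 Mb. Joined together, the stretches around the 403 sites covered 508 Mb, which is 21.2% of the autosomal span between first and last peaks, in 328 blocks.

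**Figure D1:**
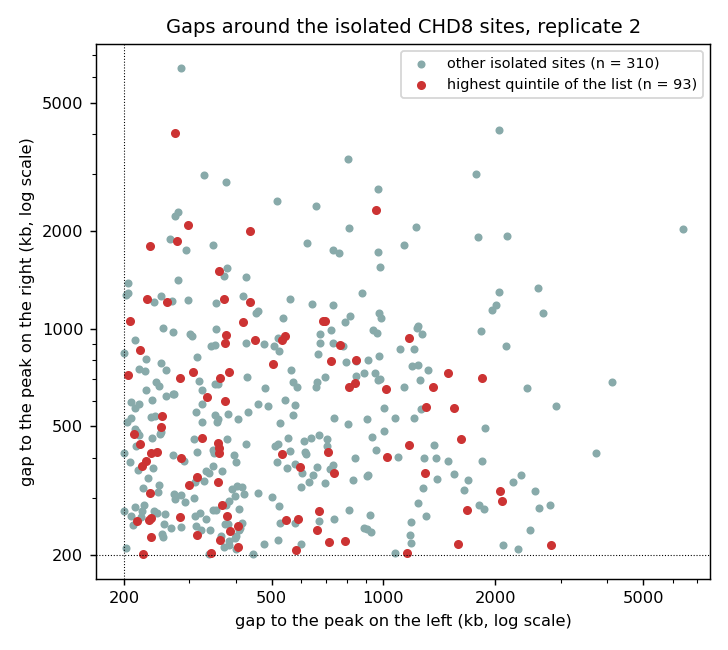
Gap to the next replicate 2 peak on the left (x axis) and on the right (y axis), in kb on log scales, for the 403 isolated sites, with the 93 sites of the highest quintile of the list in red. Dotted lines mark the 200 kb of the rule, and the red points lie among the others, with no gap to the nearer neighbour above 954 kb.

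Some isolated sites followed one another. For 262 sites neither neighbouring replicate 2 peak was itself an isolated site, while 141 sites formed 66 runs, 59 of them pairs, 5 of 3 sites and 2 of 4 sites. The run on chromosome 17 began at 75950724 to 75951664 with a fold enrichment of 7.43 in replicate 1 and 9.14 in replicate 2, and ended at 78816677 to 78817546 with 5.86 and 5.12. Its sites were 948, 731 and 1185 kb apart. Another replicate 1 peak lay 119 bp from its site at 76899814 to 76900118, so that site was isolated in replicate 2 alone. The run on chromosome 2 held 1 strong site, at 50151368 to 50152558, with folds of 12.4 and 11.2 and 54 reads at the summit in each replicate. Its other sites, at 49555933 to 49556187, 49921555 to 49921867 and 50542690 to 50543550, had replicate 1 folds between 3.38 and 4.05 and replicate 2 folds between 4.18 and 5.12. The strong site was 230 and 390 kb from the weak ones beside it.

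The median isolated site was weaker than the median CHD8 peak found in both replicates, and a small group of sites was very strong. Fold enrichment here is the authors' linear ratio of the summit over the peak caller's local background. In replicate 2 it ranged from 2.63 to 32.5 with a median of 5.12 (95% order-statistic interval over sites 4.91 to 5.32), and all autosomal peaks with a partner had a median of 5.90 (5.79 to 5.92). In replicate 1 it ranged from 2.56 to 37.2 with a median of 4.73 (4.44 to 4.96), against 4.96. The median was lower than that of all such peaks in both replicates, and in replicate 1 the bound of the interval reached the value of all peaks. Over all peaks of the lists, with or without a partner, the medians were 4.71 in replicate 2 and 4.51 in replicate 1. The replicate 1 list median lay within the interval of the sites. The lists hold peaks without a partner, which the rule left out. Such autosomal peaks of replicate 2 had a median of 3.91. The order of sites and whole lists is therefore not read as a trait of isolation. Folds of the lists are on different background scales and are therefore compared within a list only.

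Reads at the summit, recovered from the fold and the p-value of each peak, were also lower at the sites than at all peaks with a partner. The sites had a median of 21 reads in replicate 1 and 25 in replicate 2, against 23 and 30 for all autosomal peaks with a partner. The whole lists, with or without a partner, had medians of 21 and 24. The lowest read number of any site was 12 in replicate 1 and 14 in replicate 2, and the highest was 164 and 160. At the median of replicate 1, counting error alone is 21.8% of the value, so differences of that size between single sites were not detectable.

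By significance, the share of isolated sites was low among strong peaks and high among weak ones. The quintiles were formed over each whole list by −log10 q, with ties kept together. Of the 403 sites, 93 (23.1%, 95% Wilson interval 19.2 to 27.4) were in the highest quintile of replicate 2, against 34% of all autosomal peaks with a partner. In replicate 1, 77 sites (19.1%, 15.6 to 23.2) were in the highest quintile, against 25%. The lowest quintile held 58 sites (14.4%, 11.3 to 18.2) against 9.04% in replicate 2, and 75 sites (18.6%, 15.1 to 22.7) against 13.7% in replicate 1. Both replicates placed 63 of the sites in the highest quintile, a count whose share over all peaks was not computed. A fold of 10 or more in replicate 2 was reached by 32 sites (7.94%, 5.68 to 10.99) against 13.9%, and in both replicates by 28 sites (6.95%, 4.85 to 9.86) against 8.49%. The last share was within its counting error of that of all peaks.

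The 10 leading sites, ordered by the less favourable of their rank percentiles in the lists, were all among the first 588 peaks of the replicate 1 list and the first 812 of the replicate 2 list. The first lay on chromosome 12 at 44073355 to 44074869, with folds of 37.2 (exact Poisson interval 31.7 to 43.3) in replicate 1 and 32.5 (27.7 to 37.9) in replicate 2, on 164 and 160 reads. It ranked 2 of 22706 and 3 of 31002. Its neighbours in replicate 2 lay 226 kb to the left and 201 kb to the right and had a mean fold of 5.41. A replicate 1 peak was found 62399 bp away, so this site was isolated in replicate 2 alone.

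The next sites were isolated in both lists. On chromosome 4 at 150978333 to 150979820 the folds were 23.1 and 25.1 on 134 and 123 reads, with the summits of the replicates 2 bp apart. On chromosome 1 at 45851694 to 45853126 they were 24.3 and 23.8 on 107 and 117 reads, with summits 26 bp apart. The site on chromosome 6 at 147424142 to 147425421 had 20.7 and 19.9 on 91 and 110 reads. After division by depth, replicate 2 had 0.89, 1.06 and 1.17 times the reads of replicate 1 at these sites.

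Strong sites were also found with wide gaps in the replicate 2 list. On chromosome 6 at 133054874 to 133056269 the folds were 22.3 and 18.5, with summits at the same base, and the nearest replicate 2 peaks were 1495 and 732 kb away, while another replicate 1 peak lay 207505 bp away. On chromosome 7 at 136734870 to 136736056 they were 15.5 and 18.2, with neighbours 846 and 802 kb away. On chromosome 1 at 171461217 to 171462523 they were 14.5 and 17.8, with neighbours 1173 and 436 kb away. These 3 sites had 68 to 98 reads at the summit in either replicate.

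The other sites of the 10 lay on chromosomes 18, 1 and 3. That on chromosome 18 at 32996311 to 32997831 had folds of 17.3 and 16.8, and that on chromosome 3 at 62310301 to 62311258 had 15.99 and 14.99. The site on chromosome 1 at 132611885 to 132615033 had 19.1 and 14.0 and was also the widest of all isolated sites, 2946 bp in replicate 1 and 3149 bp in replicate 2. Other replicate 1 peaks lay 199935 bp from this site and 87566 bp from that on chromosome 3, so both were isolated in replicate 2 alone. All 10 were met by a single replicate 1 peak, and the depth-normalised reads of replicate 2 were 0.88 to 1.26 times those of replicate 1.

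At the other end, the 5 sites with the worst rank had replicate 1 folds between 2.56 and 5.18 and replicate 2 folds between 2.63 and 4.51. The lowest replicate 2 fold among them was on chromosome 13 at 106047326 to 106047596, with 2.63 on 17 reads, over a control coverage of 1.57 times the genome-wide background. Its replicate 1 fold was 3.28 on 15 reads. The last by rank was on chromosome 4 at 95223819 to 95224333, with 2.56 and 4.51 on 14 and 21 reads. A further site on chromosome 5 spanned 141717277 to 141717613, one on chromosome 16 spanned 50732887 to 50733234 and one on chromosome 12 spanned 28027438 to 28027858, all on 12 to 22 reads. Each of these sites is near the calling limit in at least 1 replicate. Other replicate 1 peaks lay 174 bp from the site on chromosome 13 and 3673 bp from that on chromosome 16. Another lay 47362 bp from that on chromosome 4, so the sites on chromosomes 13, 16 and 4 were isolated in replicate 2 alone.

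The 5 sites farthest from their neighbours in replicate 2 were not among the strong ones. On chromosome 4 at 65265627 to 65266533 the folds were 4.96 and 5.32 on 21 and 25 reads, and the neighbours lay 2045 and 4117 kb away. On chromosome 15 at 23227615 to 23227910 the folds were 6.76 and 4.91 on 29 and 23 reads, with neighbours 6383 and 2034 kb away. On chromosome 14 at 84842790 to 84843388 they were 3.48 and 5.92, on 16 and 28 reads, and another replicate 1 peak lay 127 bp away, so this site was isolated in replicate 2 alone. On chromosome 5 at 56182932 to 56183616 and on chromosome 6 at 103703927 to 103704244 the folds were 3.60 and 3.93 in replicate 1 and 5.32 and 5.12 in replicate 2. None of the 5 was in the highest quintile of either list, and those on chromosomes 14 and 5 were in the lowest quintile of replicate 1.

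Strength varied with isolation over the whole list. Among autosomal peaks with a partner the median replicate 2 fold was 5.32 where the nearest other peak lay within 2 kb, 6.32 from 2 to 10 kb and 6.53 from 10 to 50 kb. It was 6.14 from 50 to 100 kb, 6.12 from 100 to 200 kb, 5.12 from 200 to 500 kb and 4.91 beyond 500 kb. The replicate 1 medians of the same peaks ran 4.71, 5.10, 5.49, 5.18, 5.18, 4.73 and 4.51. The highest quintile of replicate 2 held 24.4% (95% Wilson interval 23.4 to 25.3) of the peaks within 2 kb and 44.3% (42.9 to 45.7) at 10 to 50 kb. It held 24.8% (20.3 to 30.0) at 200 to 500 kb and 17.8% (11.6 to 26.4) beyond 500 kb. The highest quintile of replicate 1 held 16.9%, 34.1%, 21.2% and 12.9% of the same classes. Both the closest and the most distant peaks were therefore weaker than those at middle distances. Within the 403 sites, Spearman's rho between the nearer gap and the summit reads was −0.08 in replicate 1 and −0.11 in replicate 2, a weak relation given without a test because the sites share the libraries.

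**Figure D2:**
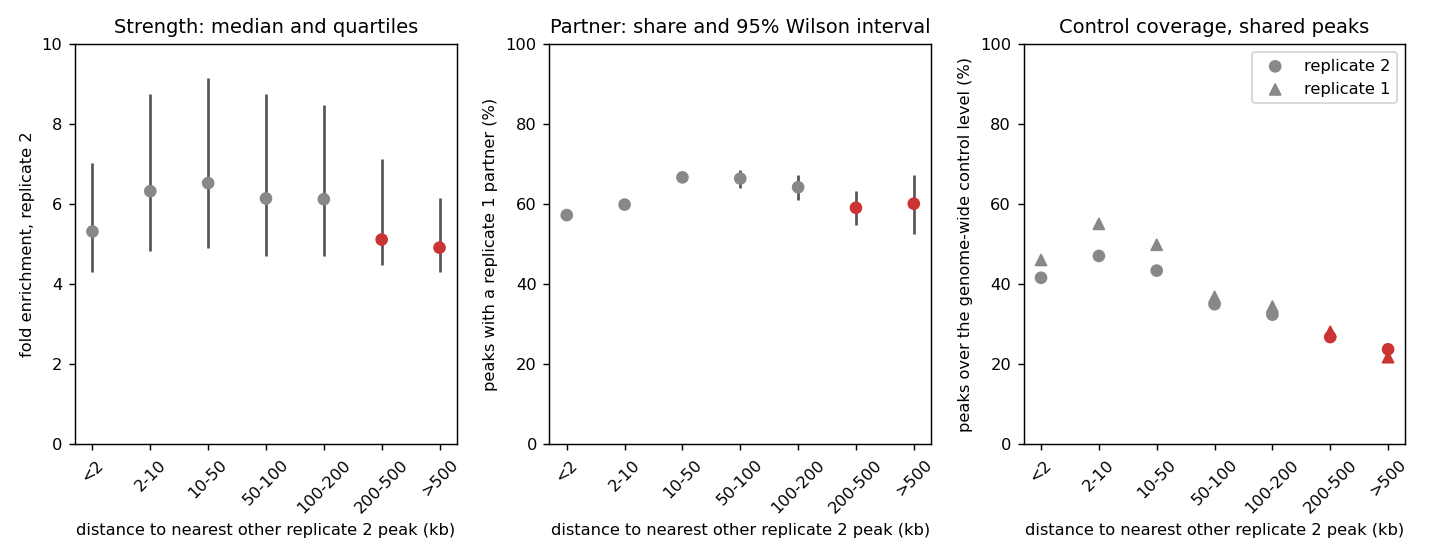
Replicate 2 peaks by distance to the nearest other replicate 2 peak in kb (x axis), with the isolated classes in red: median and quartiles of fold enrichment of peaks with a partner (left), share of all autosomal peaks with a replicate 1 partner and its 95% Wilson interval (middle), and share of peaks with a partner whose control coverage exceeds the genome-wide level (right, circles replicate 2 and triangles replicate 1). The median fold is highest at 10 to 50 kb with 6.53 and lowest beyond 500 kb with 4.91, and the control share falls to 23.8% and 21.8% beyond 500 kb.

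Control coverage was lower around isolated sites than at other peaks. It is the caller's local background from the input reads and cannot fall below the genome-wide value. It exceeded that value at 107 sites (26.6%, 95% Wilson interval 22.5 to 31.1) in replicate 1 against 47.5% of all autosomal peaks with a partner, and at 105 sites (26.1%, 22.0 to 30.6) in replicate 2 against 42.2%. At 227 sites (56.3%) neither replicate exceeded it, a share that was not computed over all peaks. The share also moved with distance, from 43.4% at 10 to 50 kb to 23.8% beyond 500 kb in replicate 2. The part of control coverage in the differences of fold and reads was not tested.

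Control coverage reached 2 times the genome-wide value at 2 sites in replicate 1 (0.50%, 95% Wilson interval 0.14 to 1.79), against 1.12% of all autosomal peaks with a partner. In replicate 2 it did so at 3 sites (0.74%, 0.25 to 2.17), against 1.47%, so both shares were within counting error of those of all peaks. It did so in both replicates at 1 site. That site, on chromosome 3 at 8245803 to 8246492, had control coverage of 3.10 and 4.32 times, 41 and 60 reads at the summit and folds of 3.60 and 3.65. On chromosome 8 at 50658799 to 50659193 the coverage was 2.75 times in replicate 2 and at the genome-wide value in replicate 1, with folds of 4.96 and 3.52. On chromosome 6 at 4036459 to 4037222 it was 2.36 times in replicate 2 and at the genome-wide value in replicate 1, with folds of 5.41 and 3.41. These 3 had the highest replicate 2 control coverage of all isolated sites.

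The median isolated site was narrower than the median CHD8 peak found in both replicates. The median width was 415 bp in replicate 1 (95% order-statistic interval 384 to 459) and 557 bp in replicate 2 (497 to 635). All autosomal peaks with a partner had 648 and 850 bp. Over the whole lists, with or without a partner, the medians were 495 and 514 bp, the latter within the interval of the sites. By distance to the nearest other peak, the replicate 2 median was 709 bp within 2 kb and 1024 bp at 10 to 50 kb. It was 587 bp at 200 to 500 kb and 492 bp beyond 500 kb. The closest peaks were thus also narrower than those at middle distances. Peaks wider than 1 kb in replicate 2 made up 103 of the sites (25.6%, 95% Wilson interval 21.5 to 30.0) against 41.3%. After the site on chromosome 1 given above, the widest were on chromosome 3 at 61166795 to 61169665, 2439 bp and 2871 bp, and on chromosome 2 at 53049101 to 53051811, 2024 bp and 2711 bp. Their folds were 8.33 and 9.95, and 11.7 and 13.2. The site on chromosome 2 was met by 2 replicate 1 peaks, and 2024 bp is the width of the partner alone.

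Width and strength moved together. Spearman's rho between width and summit reads in replicate 2 was 0.69 over the 403 sites and 0.75 over all 18543 peaks. At matched read numbers the isolated sites also had the lower median width, in some classes within the error. With 26 to 35 reads at the replicate 2 summit, the median width was 680 bp (interval 553 to 883) at 99 isolated sites and 837 bp (823 to 852) at 5586 other peaks with a partner, and these intervals overlap. With 36 to 60 reads it was 1127 bp (941 to 1219) at 75 sites and 1307 bp (1286 to 1325) at 5014 peaks. With 61 reads or more it was 1414 bp (1296 to 1711) at 22 sites and 1653 bp (1615 to 1688) at 1615 peaks.

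In the classes with fewer reads the replicate 2 intervals overlapped. With 13 to 20 reads the medians were 318 bp (271 to 354) at 80 sites and 324 bp (316 to 334) at 2302 peaks, and with 21 to 25 reads 446 bp (372 to 529) and 509 bp (497 to 521). In replicate 1 the partner widths of the same classes were 269, 346, 463, 910 and 1215 bp at isolated sites and 325, 383, 576.5, 1027 and 1427 bp at the other peaks. The isolated median was lower in all 5 classes in both replicates, with intervals that do not overlap at 36 to 60 reads in replicate 2 and at 13 to 20, 21 to 25 and 26 to 35 reads in replicate 1.

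**Figure D3:**
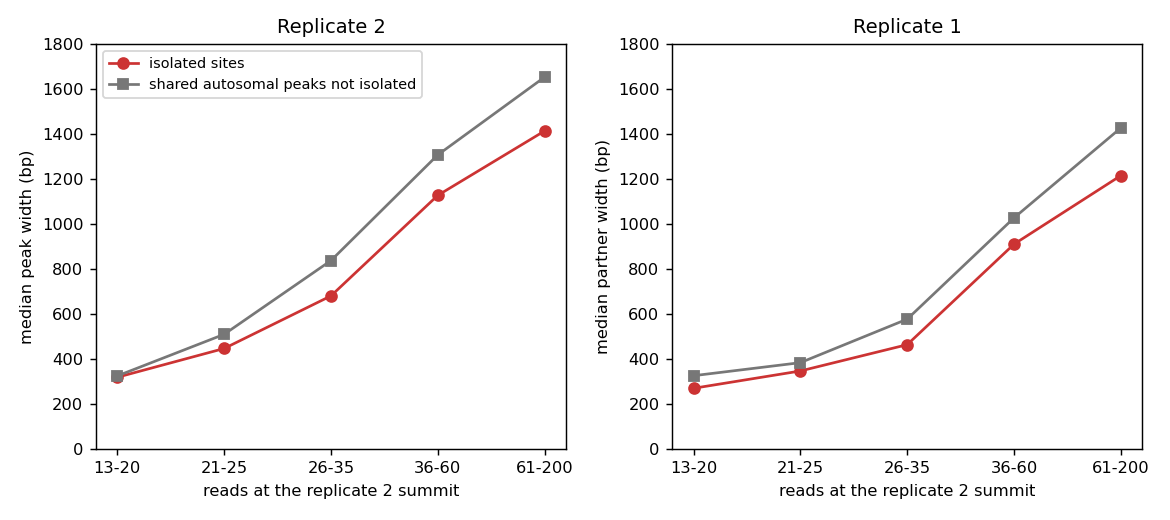
Median width in bp of replicate 2 peaks (left) and of their replicate 1 partners (right) by class of reads at the replicate 2 summit (x axis), for isolated sites in red and for the other autosomal peaks with a partner in grey. The red points lie below the grey ones in all classes, from 318 against 324 bp to 1414 against 1653 bp in replicate 2.

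The median distance between the summits of the replicates was shorter at isolated sites than at all peaks with a partner. The summits lay a median of 77 bp apart (95% order-statistic interval 66 to 92), against 101 bp (98 to 103) for all autosomal peaks with a partner. They lay within 100 bp at 232 sites (57.6%, 95% Wilson interval 52.7 to 62.3) against 49.9%. They lay within 20 bp at 74 sites and more than 500 bp apart at 19 sites, counts whose shares over all peaks were not computed. Sites in the highest quintile had a median distance of 58 bp (38 to 72), against 72 bp (68 to 75) for all peaks of that quintile, and these intervals overlap. At equal reads the isolated median was also the lower one, with 78 against 123 bp at 21 to 25 reads and 42 against 45 bp at 61 or more. By distance to the nearest other peak, the median was 122 bp within 2 kb, 90 bp at 10 to 50 kb and 83 bp at 50 to 100 kb. It was 72 bp at 100 to 200 kb, 74 bp at 200 to 500 kb and 90 bp beyond 500 kb. Close summits were thus not particular to isolated sites. Narrow peaks limit how far apart summits can lie, and the part of width in these distances was not tested. Among the isolated sites, the summits farthest apart were on chromosome 13 at 9762598 to 9764591, 1184 bp, and on chromosome 16 at 24392695 to 24394763, 1141 bp. These are wide peaks of 1994 and 2069 bp in replicate 2. That on chromosome 16 was met by 2 replicate 1 peaks, and its distance is to the summit of the partner alone. More than 1 replicate 1 peak met 26 of the sites (6.45%, 4.44 to 9.29), against 11.2% of all peaks with a partner.

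Site by site, the level in replicate 2 was mostly above that in replicate 1, as it was over all peaks. After division by ChIP depth the summit reads were higher in replicate 2 at 309 sites (76.7%, 95% Wilson interval 72.3 to 80.5), against 86.1% of all autosomal peaks with a partner. The median ratio was 1.18 (95% order-statistic interval 1.16 to 1.22) against 1.24 (1.23 to 1.24). This ratio also moved with the reads at the replicate 2 summit. At 13 to 20 reads it was 1.03 at the sites and 1.02 at the other peaks with a partner. It was 1.18 and 1.21 at 21 to 25 reads, and 1.29 and 1.32 at 26 to 35. Above these it was 1.25 and 1.31 at 36 to 60 reads, and 1.05 and 1.19 at 61 or more. Peaks with 13 to 20 reads made up 19.9% of the sites and 12.7% of the others. The part of read number in the difference was not tested. An exact binomial test of the reads against the depth ratio, with Benjamini-Hochberg adjustment over all 18543 peaks, called 0 of the 403 sites at an adjusted p under 0.05, where 0.194% of all peaks passed. At an unadjusted p under 0.05 it passed 13 sites (3.23%) against 6.43%. The test compares 2 libraries, and at these read numbers it does not show that the levels were equal. Spearman's rho of the summit reads between the replicates was 0.72 over the sites and 0.80 over all peaks, and that of the widths 0.73 and 0.69.

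**Figure D4:**
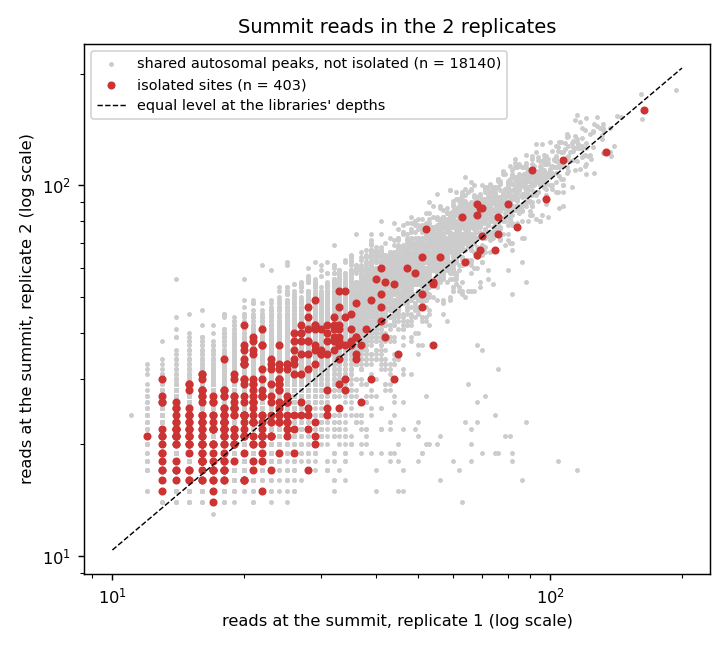
Reads at the summit in replicate 1 (x axis) and replicate 2 (y axis), on log scales, for the 403 isolated sites (red) and the other 18140 autosomal peaks with a partner (grey). The dashed line marks equal levels at the depths of the libraries, and 309 of the red points lie above it, up to the site with 164 and 160 reads.

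Most of the sites were isolated in replicate 1 as well, which the rule did not ask for. No other replicate 1 peak lay within 200 kb of 332 sites (82.4%, 95% Wilson interval 78.4 to 85.8), against 3.38% of all autosomal peaks with a partner. Distance in one list carries over to the other where peaks are shared, so this share describes how alike the lists are around the sites. Of the 71 remaining sites, 18 had another replicate 1 peak within 1 kb, 4 from 1 to 10 kb and 49 from 10 to 200 kb. The 82 replicate 1 peaks near these sites were weak, with a median fold of 3.60 on 16 reads, and 45 of them were in the lowest quintile of the replicate 1 list. None of them overlapped a replicate 2 peak, as the rule requires, so all were peaks without a partner. Their fold and quintile share were not computed over all replicate 1 peaks without a partner. Their weakness is therefore not read as a trait of these neighbours. The 332 sites isolated in both lists had median folds of 4.73 and 5.12, the same as all 403.

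The peaks on either side of an isolated site were described by the mean of their replicate 2 folds. This mean had a median of 5.02, beside 5.12 for the folds of the sites themselves. For all autosomal peaks with a partner these values were 5.15 and 5.90. A mean of 2 peaks is an unlike measure to the fold of 1 peak, and flanking peaks needed no partner. Equal strength is therefore not read from these values. A site had a higher −log10 q than both flanking peaks in 160 cases (39.7%, 95% Wilson interval 35.04 to 44.6), against 45.9% of all autosomal peaks with a partner. Both flanking peaks had a replicate 1 partner at 153 sites (38.0%), where 60.8% of all autosomal replicate 2 peaks had one. The share for both flanks was not computed over all peaks, so nothing is read from it.

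The rule kept the isolated peaks that had a partner. Of 679 autosomal replicate 2 peaks with both neighbours beyond 200 kb, the 403 sites had a partner, 59.4% (95% Wilson interval 55.6 to 63.0), and over all autosomal peaks the share was 60.8%. Nothing is read from this count, since the rule used it. The 276 isolated peaks without a partner had a median fold of 4.11, a highest fold of 6.12 and a median width of 273.5 bp. In the highest quintile all 93 isolated peaks had a partner, against 99.7% of all autosomal peaks of that quintile. In the fourth 93 of 104 had one (89.4% against 88.4%), and in the middle one 115 of 182 (63.2% against 56.1%). In the second 44 of 120 had one (36.7% against 38.2%). In the lowest 58 of 180 had one, 32.2% (25.8 to 39.4), against 23.4%. These shares also rest on the partner that the rule used and are given for description.

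Chromosomes differed in how many of their peaks were isolated. Chromosome 11 held 10 isolated sites among 1513 peaks with a partner, 0.66% (95% Wilson interval 0.36 to 1.21), the lowest share of the 19 autosomes. Chromosome 18 held 25 among 560, 4.46% (3.04 to 6.51), and chromosome 3 held 36 among 899, 4.004% (2.91 to 5.49), against 2.17% over all autosomes. Per Mb of the span between first and last peak, chromosome 11 had 0.084 sites (exact Poisson interval 0.040 to 0.155), chromosome 18 had 0.285 (0.184 to 0.421) and chromosome 3 had 0.231 (0.162 to 0.320). Chromosome 19 combined 10.7 peaks with a partner per Mb with 0.241 isolated sites per Mb (0.132 to 0.404). A chromosome with dense peaks could thus hold isolated sites at a rate close to that of chromosome 3, which had 5.77 peaks per Mb.

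**Figure D5:**
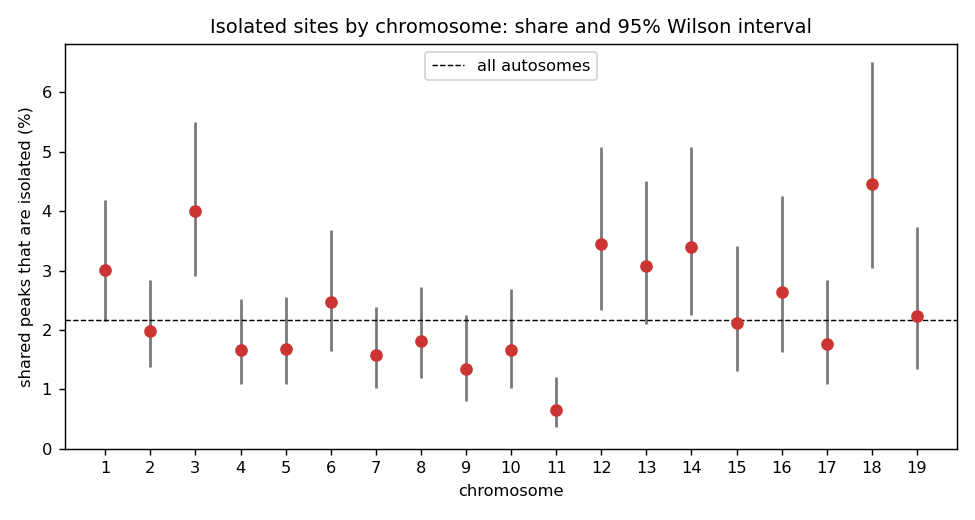
Share of autosomal replicate 2 peaks with a partner that are isolated, in percent, for each chromosome (x axis), with 95% Wilson intervals and the share over all autosomes as a dashed line. Chromosome 11 is lowest with 0.66% and chromosome 18 highest with 4.46%.

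The strong sites were spread over the chromosomes as well. Each of the 19 autosomes held 2 to 8 sites of the highest quintile, with 8 on each of chromosomes 2, 3, 7 and 18 and 2 on each of chromosomes 9, 14, 15 and 19. The median replicate 2 fold of a chromosome's sites ran from 4.71 on chromosomes 1 and 9 to 6.50 on chromosome 7, where 8 of 21 sites were in the highest quintile. With 10 to 36 sites per chromosome, their number limits these medians.

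Next to the threshold of the rule lay these peaks, given for description. Just inside were the site on chromosome 2 at 3630849 to 3631048, with a nearer gap of 200034 bp and folds of 3.60 and 3.69, and that on chromosome 2 at 128238252 to 128238477, with 200308 bp and folds of 4.04 and 4.11. Just outside were a peak on chromosome 2 at 177114349 to 177114623, with 199907 bp and folds of 4.51 and 4.91, and one on chromosome 3 at 45381909 to 45382164, with 199384 bp and folds of 4.73 and 3.91.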

How the data were processed

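Peaks were deposited by the authors as 1 list per ChIP sample, not pooled. Bowtie2 2.1.0, MACS2 2.1.1 and mm9 are named per the submitters' processing notes, while the labels do not give the pairing of inputs with ChIP samples or other filters. The deposited columns hold a score (10 times −log10 q, cut to a whole number), the fold enrichment as a linear ratio, and −log10 p and −log10 q of the summit. The ChIP lists held 22706 and 31002 peaks, with every summit resting on at least 11 and 13 reads.

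Summit reads and control coverage were solved from each peak's fold and p-value with the caller's formulas, (scaled reads + 1)/(background + 1) and the Poisson tail. The misfit in log10 p stayed under 0.002 for all peaks, and 78 replicate 2 peaks had more than 1 solution, of which the closest was taken. On simulated lists made with the same formulas, 100% of the read numbers were recovered for both lists, which tests the solving only. ChIP depth was 3.44 and 3.56 reads per 200 bp of genome.

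The partner of a site was the overlapping replicate 1 peak with the highest −log10 q. Sites were described by counts and medians beside all 18543 autosomal peaks with a partner, without a test of the list. Wilson and Poisson intervals cover counting error. Order-statistic intervals cover the sampling error of a median over sites, not the spread of the sites. They treat the sites as independent, although the sites share the libraries. The sites named are the 10 best and 5 worst ranked, the 5 most isolated, the 3 widest, the 3 with the highest replicate 2 control coverage, the 2 with summits farthest apart, and those next to the threshold. Runs and extreme read ratios were picked with their values in view. The members, lists and measures were chosen with earlier results of these data known. The alternatives tried were other gap lengths, 50% reciprocal overlap, replicate 1 as the base list, isolation in both lists, neighbours with a partner only, the upper 50% of each list, and leaving out high control coverage. Python 3.11.15, numpy 2.4.6, pandas 2.3.3, scipy 1.17.1 and matplotlib 3.10.9 were used.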

Additional observations from a re-analysis of the deposited data

How the results depend on the processing

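The 403 sites became 949 with a gap of 100 kb, 101 with 500 kb and 723 when only peaks with a partner counted as neighbours, and 320 to 558 under the other settings. Medians and shares here are means of both replicates. With 100 kb the median fold was 5.28 (4.92 in the report), the width 595 bp (486), −log10 q 8.27 (6.99), the highest-quintile share 27.3% (21.1%) and the share with raised control coverage 30.4% (26.3%). With 500 kb, −log10 q was 6.23, the quintile share 15.3% and the control share 22.8%. With 50% reciprocal overlap they were 7.66, 25.5% and 27.8%, and the summits lay 65 bp apart. Using only the upper 50% of each list, which removes weak peaks by construction, gave a fold of 6.72, a width of 953.5 bp, −log10 q of 13.7, a quintile share of 45.4% and a control share of 28.8%. The control share was 29.4% with replicate 1 setting the gaps, 25.8% for sites isolated in both lists and 25.8% without high control coverage, and −log10 q was 7.19 for sites isolated in both lists. The share isolated in replicate 1 was 89.1% at 100 kb. On chromosomes 11 and 18 the isolated shares became 1.98% and 8.21% at 100 kb. Leaving out a replicate gave folds of 4.73 to 5.12, widths of 415 to 557 bp, −log10 q of 6.90 to 7.08, quintile shares of 19.1% to 23.1% and control shares of 26.1% to 26.6%. Leaving these and the counts of sites aside, 29 of 53 values moved by less than the SD between the replicates or, for single values, stayed within their interval. For folds that SD also holds the different background scales of the lists. The cause of these shifts was not tested where none is given. A comparison of windows for motifs and annotated starts was not run, since no sequence or annotation of mm9 was used. No paired analysis was possible because the only comparison is between the replicates themselves and no list of the inputs was analysed. At a median of 21 and 25 reads per summit, differences between single weak sites were not detectable.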

Other observations

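The X chromosome, which the rule leaves out, held 29 peaks that met the other conditions, among 321 with a partner. That is a higher share than the 403 among 18543 (2.17%) on the autosomes. The replicate 2 folds of the 29 peaks had a median of 5.32 and a range of 3.46 to 13.6, and their median width was 585 bp.

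The sites with the most unequal replicates were picked after their values were seen. On chromosome 12 at 18394764 to 18394977 the summit had 28 and 17 reads in replicates 1 and 2, a depth-normalised ratio of 0.59. On chromosome 18 at 62423932 to 62424818 it had 13 and 30 reads, a ratio of 2.23. On chromosome 8 at 15984137 to 15984912 it had 20 and 42 reads, a ratio of 2.03. None of the 3 passed the exact binomial test after adjustment over all peaks (adjusted p = 0.742 for each).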
